A study of Homo sapiens with 9 samples.

Results

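Haptoglobin (*HP*) and other acute-phase genes of the liver were followed in HepG2 cells, an established human liver cancer line, after depletion of the long non-coding RNA *TUG1*. The rule named 10 genes by symbol: *HP*, *HPX*, *ORM1*, *ORM2*, *SERPINA3*, *FGA*, *FGB*, *FGG*, *ITIH3* and *ITIH4*. Of these, 9 were among the 12854 genes listed in both count tables, and *ITIH4* was not analysed here. The genes were chosen by their log2(fold change) in earlier results of these same data, so their differences between groups are given as a description without a test.

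RNA-seq compared a control line (sh-Con) with the knockdown lines sh1-*TUG1* and sh2-*TUG1*, at 3 libraries per group. The sh-Con line carried a control hairpin, and the other lines carried different hairpins against *TUG1*. All lines held the hairpin in a doxycycline-inducible lentiviral vector and grew in low-glucose DMEM with fetal bovine serum. The dose and duration of doxycycline for these libraries, and whether each line was 1 clone or a pool, are not given in the sources used here. The study describes the libraries as technical replicates, so SDs, SEs and adjusted p-values cover the spread between these libraries and not that between cultures. Total counts ran from 33054291 to 39393293 per library, and *TUG1* itself was not analysed here. All 7 hepatocyte markers were listed, with a summed level of 32949 to 45413 CPM, counts scaled to library size by TMM. The summed level was 32949 to 34670 CPM in sh-Con, 37949 to 39438 CPM in sh1-*TUG1* and 43905 to 45413 CPM in sh2-*TUG1*. *ALB*, serum albumin, alone had a mean of 13505, 18457 and 25387 CPM in these groups. By edgeR's adjusted p alone, 4 of the 7 were higher and 1 lower in sh1-*TUG1* (median log2(fold change) of 0.24), while for sh2-*TUG1* the numbers were 2 and 4 (median of −0.20). Of 10 markers of leukocytes, endothelium, mesenchyme and bile duct, 6 were listed, with summed levels of 464 to 512 CPM in sh-Con, 398 to 412 CPM in sh1-*TUG1* and 288 to 303 CPM in sh2-*TUG1*. *KRT19*, a bile duct keratin, made up most of this sum, with a mean of 351, 280 and 172 CPM, and the macrophage marker *CD68* had 63.7, 35.2 and 20.8 CPM. Against the fall of the sum, *VWF* of endothelium (1.49, 3.96 and 4.70 CPM) and *PDGFRB* of mesenchyme (20.9, 32.8 and 56.6 CPM) rose more than 1.5-fold at an edgeR adjusted p under 0.05 in both lines. *PECAM1* of endothelium (7.64, 7.95 and 8.33 CPM) and *ACTA2* of mesenchyme (37.0, 44.6 and 33.4 CPM) passed these limits in neither line. *KRT19*, *CD68*, *VWF* and *PDGFRB* were picked out after their values were seen. The leukocyte marker *PTPRC*, the mesenchymal collagens *COL1A1* and *COL1A2* and the bile duct keratin *KRT7* were not analysed here. The part of either marker list in the results was not tested.

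Acute-phase proteins are plasma proteins whose secretion by hepatocytes changes during inflammation. Interleukin-6 acts through its receptor, the shared subunit gp130 and STAT3, and interleukin-1 and TNF act through NF-kB. These signals meet C/EBP and other liver transcription factors at the promoters of the acute-phase genes. Haptoglobin binds free hemoglobin and hemopexin binds free heme. The orosomucoids are acid glycoproteins that carry drugs and lipids, SERPINA3 inhibits chymotrypsin-like proteases, and the fibrinogen chains form the clot. Some heavy chains of the inter-alpha-trypsin inhibitor family can be joined to hyaluronan.

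Close paralogs among these genes limit what counts of short reads can tell apart. *HP* lies on chr16:72054592-72061055 (GRCh38, plus strand), and its paralog *HPR*, haptoglobin-related protein, lies 2093 bases downstream on chr16:72063148-72077246. The coding sequences of GENCODE 29 transcripts HP-203 and HPR-202 had 95.58% identical bases over an alignment of 1041 bases. Their coding lengths were 1326 and 1044 bases, and bases outside the alignment were not compared. Of all 100-base stretches of HP-203, 12.94% also occurred in any transcript of *HPR*, and 22.62% of those of HPR-202 in any transcript of *HP*. *ORM1* (chr9:114323056-114326475) and *ORM2* (chr9:114329869-114333252) lie next to each other on the plus strand, with 94.86% identical coding bases. There, 33.71% of the 100-base stretches of ORM1-201 and 35.85% of those of ORM2-201 were shared with any transcript of the other gene. The 90-base coding windows, aligned without gaps, where each pair differed most follow. They are given since reads from such windows separate the paralogs while reads from identical stretches do not. Capitals mark the bases that differ, 11 in the haptoglobin pair and 18 in the orosomucoid pair. The windows span coding positions 943 to 1032 of *HP*, 661 to 750 of *HPR* and 314 to 403 of both orosomucoids, counted from the start codon.

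HP: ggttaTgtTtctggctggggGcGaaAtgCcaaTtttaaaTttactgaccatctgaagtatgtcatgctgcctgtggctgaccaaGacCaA

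HPR: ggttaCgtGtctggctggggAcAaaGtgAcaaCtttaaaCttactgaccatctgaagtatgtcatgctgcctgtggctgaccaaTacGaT

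ORM1: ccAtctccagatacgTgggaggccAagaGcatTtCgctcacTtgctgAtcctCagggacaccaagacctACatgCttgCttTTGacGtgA

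ORM2: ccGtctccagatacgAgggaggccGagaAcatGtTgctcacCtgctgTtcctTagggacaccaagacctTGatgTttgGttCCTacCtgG

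How the counting treated reads that fit both paralogs is not given in the sources used here, so the split of counts within each pair is uncertain. Both haptoglobin genes also lie within *TXNL4B*, a gene on the other strand, whose log2(fold change) was 0.23 ± 0.06 (SE) for sh1-*TUG1* and 0.12 ± 0.06 for sh2-*TUG1*. *SERPINA3* overlaps *AL049839.2* on the same strand, and whether counting used strand is not given in the sources used here.

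The members held 0.310 to 0.322% of all counts in the sh-Con libraries, 0.401 to 0.410% in sh1-*TUG1* and 0.279 to 0.318% in sh2-*TUG1*. In these bulk libraries, fewer cells that express a gene and less RNA per cell cannot be told apart. A gene was called a DEG where its fold change exceeded 1.5 and its adjusted p lay under 0.05 in edgeR's quasi-likelihood test over all genes. In sh1-*TUG1* against sh-Con, 3 of the 9 members were called higher (*HP*, *HPX* and *SERPINA3*) and 0 lower, where 2.44% of 13017 tested genes were called higher and 2.52% lower. In sh2-*TUG1* against sh-Con, 0 were called higher and 1 lower (*HP*), where 4.35% of 12953 genes were called higher and 8.97% lower. In sh2-*TUG1* against sh1-*TUG1*, 0 were called higher and 3 lower (*HP*, *HPX* and *SERPINA3*), where 2.56% of 12854 genes were called higher and 8.04% lower. By the adjusted p alone, 7 members were higher and 0 lower in sh1-*TUG1*, against 12.5% and 12.3% of all genes. The same count was 2 higher and 3 lower in sh2-*TUG1*, against 21.6% and 21.9%. Between the knockdown lines it was 1 higher and 6 lower, against 21% and 21.7%. Nothing is read from these counts, because the same contrasts served to choose the members. The comparisons with sh-Con share the same 3 control libraries. In sh1-*TUG1* the members had a median log2(fold change) of 0.37, where all tested genes had 0.0027, and in sh2-*TUG1* they had −0.22, where all tested genes had −0.0048.

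**Figure D1:**
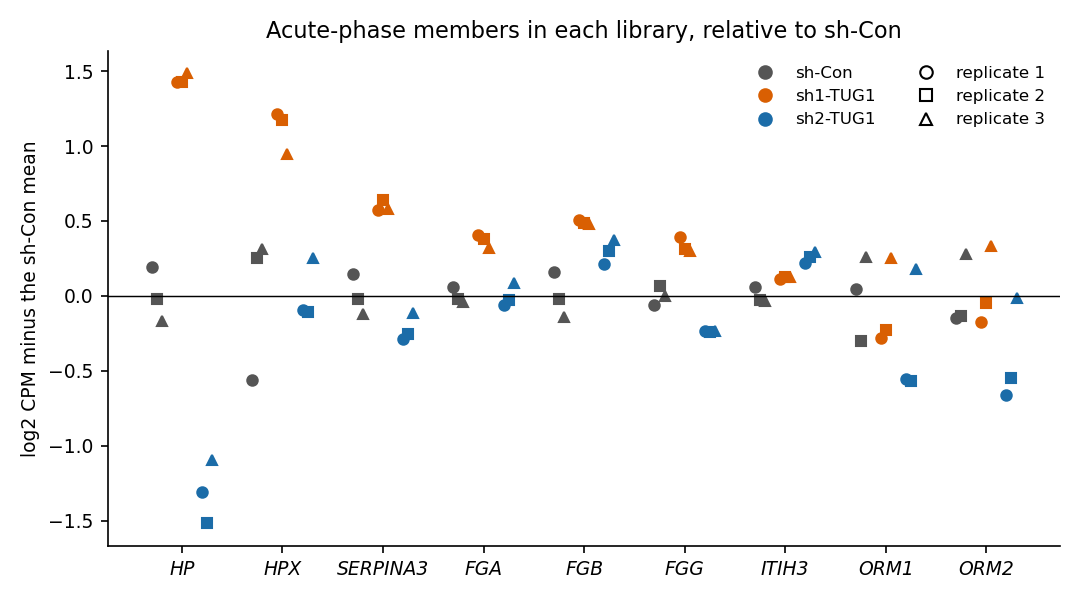
Log2 CPM (prior count 2) of each member in each library minus the mean of the 3 sh-Con libraries, on the y axis, with 1 point per library (colour, group; shape, replicate number). The *HP* points of the knockdown lines lie on opposite sides of the sh-Con points, with fitted values of 1.44 and −1.31, while the *ORM1* points of the 3 groups overlap.

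*HP*, the hemoglobin scavenger, had 678, 602 and 601 counts in the sh-Con libraries, 1665, 1768 and 1915 in sh1-*TUG1*, and 236, 210 and 325 in sh2-*TUG1*. The groups did not overlap. Its level was 18.2 ± 2.32 CPM (SD, n = 3) in sh-Con, 49.4 ± 1.18 CPM in sh1-*TUG1* and 7.32 ± 1.07 CPM in sh2-*TUG1*. *HP* was thus 2.72-fold higher in sh1-*TUG1* than in sh-Con, with a log2(fold change) of 1.44 ± 0.08 (SE). It was 2.48-fold lower in sh2-*TUG1*, with a log2(fold change) of −1.31 ± 0.13. Between the knockdown lines it was 6.73-fold lower in sh2-*TUG1*, with a log2(fold change) of −2.75 ± 0.11. Leaving out each library in turn, and each other setting tried, kept the sh1-*TUG1* value within 1.36 to 1.54 and the sh2-*TUG1* value within −1.43 to −1.21.

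*HPR*, whose product is also a hemoglobin-binding plasma protein, had 193, 178 and 246 counts in sh-Con, 508, 576 and 562 in sh1-*TUG1*, and 56, 126 and 106 in sh2-*TUG1*. Its groups did not overlap either. Its log2(fold change) was 1.36 ± 0.11 (SE) in sh1-*TUG1* (edgeR adjusted p = 3.98e-05) and −1.11 ± 0.26 in sh2-*TUG1* (edgeR adjusted p = 0.00721), with 3 of 3 libraries on the stated side in each. The second value was −0.86 to −1.40 when libraries were left out in turn, and the calls were kept. *HP* had 3.11 ± 0.584 (SD, n = 3) times the counts of *HPR* in sh-Con, 3.25 ± 0.171 times in sh1-*TUG1* and 2.98 ± 1.28 times in sh2-*TUG1*. This ratio ran from 1.67 to 4.21 in the sh2-*TUG1* libraries and overlapped between all groups. Reads shared by the pair can carry the counts of one gene into the other, and their part in the values of *HPR* was not tested.

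*HPX*, hemopexin, was the member with the fewest counts, at 46, 85 and 98 in sh-Con, 169, 175 and 155 in sh1-*TUG1*, and 64, 65 and 97 in sh2-*TUG1*. The sh1-*TUG1* libraries lay above all the others, and the sh-Con and sh2-*TUG1* libraries overlapped. Its level was 2.18 ± 0.676 CPM (SD, n = 3) in sh-Con, 4.63 ± 0.452 CPM in sh1-*TUG1* and 2.14 ± 0.322 CPM in sh2-*TUG1*. On the log2 scale the fitted difference was 1.08 ± 0.24 (SE) in sh1-*TUG1*, −0.03 ± 0.28 in sh2-*TUG1* and −1.11 ± 0.24 between the knockdown lines. Without replicate 1 of sh-Con, the lowest of its group, the log2(fold change) in sh1-*TUG1* was 0.84.

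**Figure D2:**
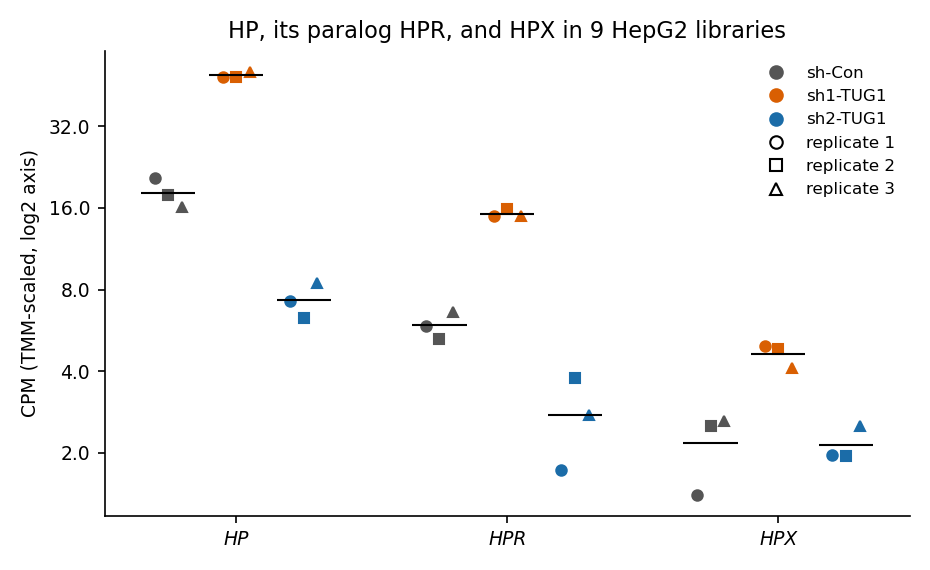
CPM of *HP*, *HPR* and *HPX* in each library on a log2 axis, with 1 point per library (colour, group; shape, replicate number) and a bar at the mean of 3 libraries. For *HP* the sh1-*TUG1* mean of 49.4 CPM and the sh2-*TUG1* mean of 7.32 CPM lie above and below the sh-Con mean of 18.2 CPM, whereas for *HPX* the sh1-*TUG1* libraries alone stand apart.

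*SERPINA3*, alpha-1-antichymotrypsin, had 19748, 18156 and 18713 counts in sh-Con, 27641, 30818 and 30655 in sh1-*TUG1*, and 14546, 15272 and 19406 in sh2-*TUG1*. The sh1-*TUG1* libraries lay above all the others, and replicate 3 of sh2-*TUG1*, at 502.9 CPM, lay just above the lowest sh-Con library, at 501.3 CPM. The mean was 547 ± 51.3 CPM (SD, n = 3) in sh-Con, 824 ± 22.3 CPM in sh1-*TUG1* and 469 ± 29.6 CPM in sh2-*TUG1*. Its log2(fold change) was 0.59 ± 0.06 (SE) in sh1-*TUG1*, a fold of 1.51 that lay just above the fold limit of 1.5, and −0.22 ± 0.07 in sh2-*TUG1*. Between the knockdown lines it was −0.81 ± 0.06. Without replicate 2 or 3 of sh-Con or replicate 2 of sh1-*TUG1* the sh1-*TUG1* value was 0.53 to 0.57, within that limit. As a member chosen from these data, *SERPINA3* was not tested.

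The 3 fibrinogen chains are encoded side by side on chromosome 4, *FGB* on the plus strand and *FGA* and *FGG* on the minus strand. *FGA*, the alpha chain, had 27599, 26912 and 29296 counts in sh-Con, 36486, 38039 and 38047 in sh1-*TUG1*, and 25180, 26489 and 33133 in sh2-*TUG1*. Its sh1-*TUG1* libraries lay above all the others, while sh-Con and sh2-*TUG1* overlapped. *FGB*, the beta chain, had 3766, 3417 and 3477 counts in sh-Con, 4983, 5216 and 5393 in sh1-*TUG1*, and 3860, 4228 and 5118 in sh2-*TUG1*. On the CPM scale its groups did not overlap, with sh2-*TUG1* (118.7 to 132.6 CPM) between sh-Con (93.1 to 114.9 CPM) and sh1-*TUG1* (143.1 to 145.9 CPM). *FGG*, the gamma chain, had 20348, 22973 and 24186 counts in sh-Con, 29042, 29232 and 30070 in sh1-*TUG1*, and 17903, 18354 and 21270 in sh2-*TUG1*. On the CPM scale the *FGG* groups did not overlap, and sh2-*TUG1*, at 549.4 to 551.2 CPM, was the lowest.

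The log2(fold change) in sh1-*TUG1* was 0.37 ± 0.04 (SE) for *FGA*, 0.49 ± 0.07 for *FGB* and 0.33 ± 0.05 for *FGG*, all below the fold limit for a call. In sh2-*TUG1* it was −0.0002 ± 0.05 for *FGA*, 0.29 ± 0.08 for *FGB* and −0.24 ± 0.05 for *FGG*. Between the knockdown lines *FGG* was at −0.57 ± 0.04, just within the fold limit, which it passed at −0.64 when libraries were scaled by size alone. The chains thus had like values in sh1-*TUG1* and values on either side of 0 in sh2-*TUG1*. Per kb of the longest coding transcript, *FGG* made up 57.6 ± 2.14% (SD, n = 3) of the 3 chains in sh-Con, 56.6 ± 0.444% in sh1-*TUG1* and 52.5 ± 1.32% in sh2-*TUG1*. *FGB* made up 8.14 ± 0.84%, 8.90 ± 0.17% and 10.7 ± 0.341% in the same order. *FGA* made up 34.3 ± 1.37%, 34.5 ± 0.383% and 36.8 ± 1.04%. The sh2-*TUG1* libraries lay above all others for the shares of *FGB* and *FGA* and below all others for *FGG*. The size of each share depends on the transcript length used, since *FGA* and *FGG* have several coding transcripts.

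**Figure D3:**
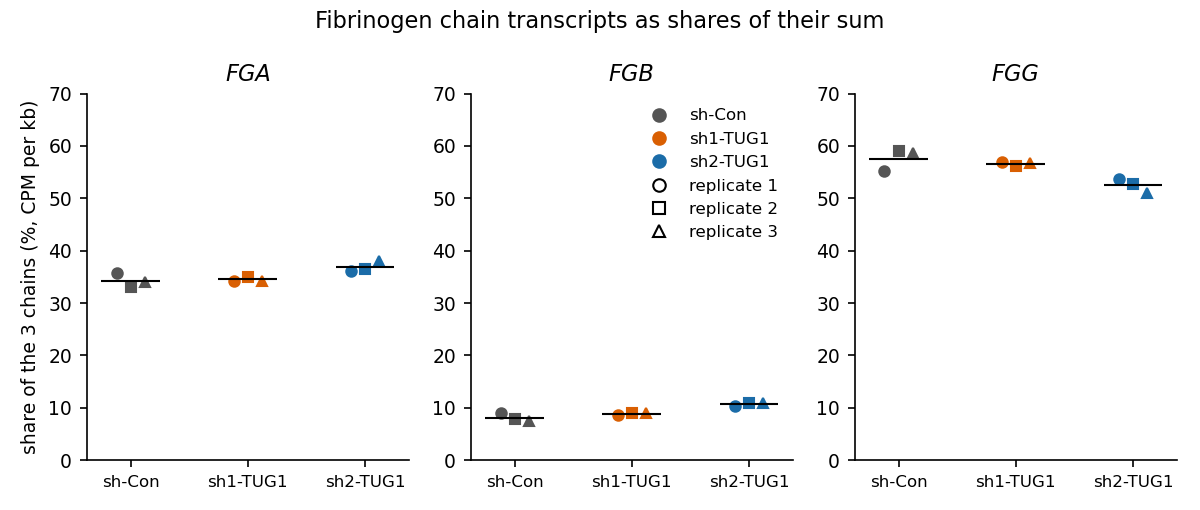
Share of each fibrinogen chain in the sum of the 3 chains, in percent of CPM per kb of the longest coding transcript, with 1 point per library and a bar at the mean of 3 libraries in each group. *FGB* has the lowest share in every library, with a mean of 8.14% in sh-Con and 10.7% in sh2-*TUG1*, while *FGG* has 57.6% and 52.5%.

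The promoters of these chains are shown because the genes lie next to each other and had unlike values in sh2-*TUG1*. RefSeq promoter windows (GRCh38.p14) span 250 bases before the start site to 50 bases after it, and 8 of the 10 genes had an entry, *HP* and *ORM2* not among them. Capitals mark matches, on either strand, to TTCNNNGAA (STAT palindrome), CTGGGAA (core of the IL-6 response element) or TTGCNNAA (C/EBP). The first and second motif can overlap. The windows are chr4:154590693-154590992 (minus strand) for *FGA*, chr4:154562730-154563029 (plus strand) for *FGB*, chr4:154612607-154612906 (minus strand) for *FGG* and chr11:6440938-6441237 (minus strand) for *HPX*.

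FGA: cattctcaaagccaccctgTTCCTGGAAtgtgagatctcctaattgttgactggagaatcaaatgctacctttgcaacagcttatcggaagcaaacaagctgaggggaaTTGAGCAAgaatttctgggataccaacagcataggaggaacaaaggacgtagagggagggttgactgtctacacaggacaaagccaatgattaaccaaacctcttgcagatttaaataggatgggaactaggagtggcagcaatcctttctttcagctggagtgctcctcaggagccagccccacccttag

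FGB: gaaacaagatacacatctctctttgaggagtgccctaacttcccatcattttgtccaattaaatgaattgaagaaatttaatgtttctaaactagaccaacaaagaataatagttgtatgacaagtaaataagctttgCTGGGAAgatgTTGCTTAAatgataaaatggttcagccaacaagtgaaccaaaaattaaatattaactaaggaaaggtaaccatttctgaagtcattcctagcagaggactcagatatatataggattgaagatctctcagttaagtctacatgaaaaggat

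FGG: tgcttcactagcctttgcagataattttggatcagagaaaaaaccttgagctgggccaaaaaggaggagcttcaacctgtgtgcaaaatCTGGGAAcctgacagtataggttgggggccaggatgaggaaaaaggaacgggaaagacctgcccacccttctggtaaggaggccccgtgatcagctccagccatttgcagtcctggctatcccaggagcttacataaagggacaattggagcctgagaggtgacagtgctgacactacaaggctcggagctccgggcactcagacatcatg

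HPX: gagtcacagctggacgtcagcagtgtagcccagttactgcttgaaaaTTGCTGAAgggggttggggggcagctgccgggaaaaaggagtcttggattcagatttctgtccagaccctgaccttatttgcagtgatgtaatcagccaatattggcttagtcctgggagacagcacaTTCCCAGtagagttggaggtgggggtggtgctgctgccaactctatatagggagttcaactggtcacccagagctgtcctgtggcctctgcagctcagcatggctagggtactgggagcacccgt

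The *FGA* window held TTCNNNGAA from −231 to −223 and TTGCNNAA from −141 to −134, counted from the start site. The *FGB* window shown held CTGGGAA from −112 to −106 and TTGCNNAA from −101 to −94, and *FGG* held CTGGGAA from −161 to −155. Another *FGB* window, chr4:154562761-154563060, held the same matches from −143 to −137 and from −132 to −125, counted from its own start site. *HPX* held TTGCNNAA from −203 to −196 and CTGGGAA from −75 to −69. *ITIH4* held overlapping matches to TTCNNNGAA and CTGGGAA from −74, and no match was found in the windows of *ITIH3*, *ORM1* and *SERPINA3*. Among 35116 RefSeq promoter windows, 7.66% held TTCNNNGAA, 10.8% CTGGGAA and 10.5% TTGCNNAA. A match is only a run of letters, and its use in these cells was not tested.

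*ITIH3*, a heavy chain of the inter-alpha-trypsin inhibitor family, had 18920, 18445 and 20253 counts in sh-Con, 20489, 21915 and 22825 in sh1-*TUG1*, and 20996, 22241 and 26286 in sh2-*TUG1*. On the CPM scale its groups did not overlap, but they lay close together, at 555 ± 19.2 CPM (SD, n = 3), 603 ± 2.87 CPM and 664 ± 17.7 CPM. Its log2(fold change) was 0.12 ± 0.04 (SE) in sh1-*TUG1* and 0.26 ± 0.04 in sh2-*TUG1*. It was the only member with its highest mean CPM in sh2-*TUG1*.

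*ORM1* had 9885, 8032 and 13049 counts in sh-Con, 8237, 9038 and 13167 in sh1-*TUG1*, and 6458, 6605 and 12774 in sh2-*TUG1*. *ORM2* had 5448, 5662 and 8357 counts in sh-Con, 5570, 6454 and 8726 in sh1-*TUG1*, and 3789, 4194 and 7016 in sh2-*TUG1*. For both genes the groups overlapped, and replicate 3 was the highest library of every group. On the log2 CPM scale, replicate 3 exceeded the higher of the other libraries by 0.21 in sh-Con, 0.49 in sh1-*TUG1* and 0.74 in sh2-*TUG1* for *ORM1*, and by 0.42, 0.38 and 0.53 for *ORM2*. The log2(fold change) of *ORM1* was −0.08 ± 0.16 (SE) in sh1-*TUG1* and −0.29 ± 0.20 in sh2-*TUG1*. That of *ORM2* was 0.04 ± 0.14 and −0.40 ± 0.17. Without replicate 3 of sh2-*TUG1* the sh2-*TUG1* values were −0.58 for *ORM1* and −0.62 for *ORM2*, and without replicate 3 of sh-Con they were −0.15 and −0.24. Set side by side by replicate number, the sh2-*TUG1* library minus the sh-Con library was −0.60, −0.26 and −0.08 for *ORM1* and −0.51, −0.42 and −0.30 for *ORM2*. The labels do not say that a replicate number marks a shared batch. *ORM1* took 61.4 ± 2.93% (SD, n = 3) of the counts of the pair in sh-Con, 59.4 ± 0.933% in sh1-*TUG1* and 62.9 ± 1.70% in sh2-*TUG1*, with overlapping groups.

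**Figure D4:**
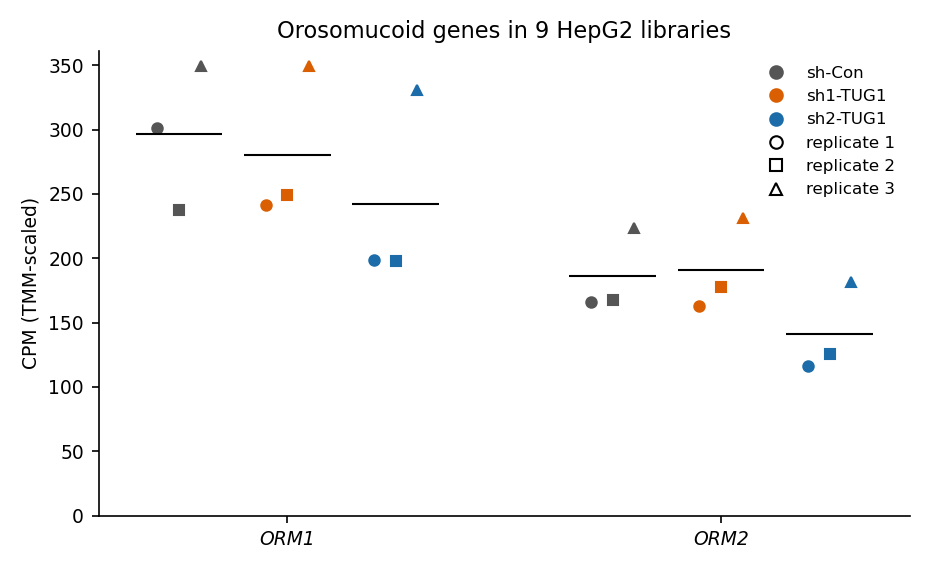
CPM of *ORM1* and *ORM2* in each library, with 1 point per library (colour, group; shape, replicate number) and a bar at the mean of 3 libraries. The triangles, replicate 3, are the highest point of every group for both genes, and for *ORM2* the sh2-*TUG1* libraries span 117 to 182 CPM against 166 to 224 CPM in sh-Con.

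Levels can be set against each other only per length. In CPM per kb of all exons of a gene, the sh-Con order was *ORM1* (329 ± 62.4, SD, n = 3), *ORM2* (245 ± 43.4), *FGA* (204 ± 7.67), *FGG* (180.4 ± 8.14), *SERPINA3* (109 ± 10.2), *ITIH3* (93.7 ± 3.25), *FGB* (38.0 ± 4.06), *HP* (3.37 ± 0.429) and *HPX* (0.601 ± 0.186). *ORM1* and *ORM2* overlapped in their sh-Con libraries, and no other neighbours in this order did. With the longest coding transcript as the length, *FGG* moved up to second place at 369 CPM per kb, and the last 5 places were unchanged. In sh1-*TUG1* the level of *HP* was 9.15 ± 0.218 CPM per kb and in sh2-*TUG1* 1.35 ± 0.198, in both the eighth place. In sh2-*TUG1*, *ITIH3* (112 ± 2.99 CPM per kb) stood above *SERPINA3* (93.7 ± 5.92), the reverse of their order in sh-Con and sh1-*TUG1*, and their sh2-*TUG1* libraries did not overlap.

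Of 11504 genes with an Ensembl identifier and a mean of at least 50 counts, those nearest to *HP* over the 9 libraries were *MAB21L4*, *HPR*, *DPEP1*, *TNFSF10* and *SPTLC3*. The measure was the root mean square difference of log2 CPM after the sh-Con mean was taken off, and was 0.36, 0.36, 0.43, 0.52 and 0.54. Their mean log2 difference from sh-Con was 0.88 to 1.36 in sh1-*TUG1* and −0.52 to −1.34 in sh2-*TUG1*. Nearest to the mean of the fibrinogen chains were *CPVL* (0.03), *FGFR3* (0.03), the complement gene *C4B* (0.04), *FGFR4* (0.05) and *NEO1* (0.05).

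The other genes of the acute-phase response were placed in 6 lists by role. The lists held 95 distinct genes, not all of them tested. In all lists together, 6 genes were called higher and 2 lower in sh1-*TUG1* against sh-Con, and 7 higher and 14 lower in sh2-*TUG1*. Of all tested genes, 2.44% were called higher and 2.52% lower in sh1-*TUG1*, and 4.35% and 8.97% in sh2-*TUG1*. For each of these calls, 3 of 3 libraries of the line lay beyond every sh-Con library. The calls came from the same libraries and favour such separation, so it is no separate support. The lists were set with earlier results known. The counts of each list are to be read beside the shares of all genes, and the medians beside those of all genes, 0.0027 and −0.0048.

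Of 20 further positive acute-phase genes, 14 were tested. In sh1-*TUG1*, 2 were called higher and 1 lower, with a median log2(fold change) of 0.15, and in sh2-*TUG1* 0 were called higher and 5 lower, with a median of −0.32. DESeq2 called the same numbers in both lines, and at an unadjusted p under 0.05 in edgeR 1 of these genes was higher in sh2-*TUG1*. *HAMP*, which encodes the iron hormone hepcidin, had 72, 101 and 80 counts in sh-Con, 165, 234 and 201 in sh1-*TUG1*, and 65, 85 and 109 in sh2-*TUG1*. It rose in sh1-*TUG1* by a log2(fold change) of 1.18 ± 0.20 (SE) (edgeR adjusted p = 0.00233) and was at 0.01 ± 0.23 in sh2-*TUG1*. *C4BPA*, a chain of the complement inhibitor C4b-binding protein, rose by 0.63 ± 0.06 in sh1-*TUG1* (edgeR adjusted p = 0.000111), and by 0.58, within the fold limit, without replicate 2 of sh-Con. *CP*, the copper-carrying ferroxidase ceruloplasmin, fell in both lines, with 12495, 12787 and 13251 counts in sh-Con, 6276, 6574 and 6694 in sh1-*TUG1*, and 3922, 4039 and 5200 in sh2-*TUG1*. Its log2(fold change) was −1.04 ± 0.04 (edgeR adjusted p = 5.5e-07) and −1.57 ± 0.06 (edgeR adjusted p = 2.69e-07).

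In sh2-*TUG1* the complement protease gene *CFB* fell by 0.86 ± 0.06 on the log2 scale (edgeR adjusted p = 8.63e-06), *LCN2*, which encodes a siderophore-binding lipocalin, by 0.85 ± 0.12 (0.000443), and *SERPING1*, the C1 inhibitor, by 0.68 ± 0.15 (0.00517). *SERPINA1*, alpha-1-antitrypsin, fell by 0.60 ± 0.09 (edgeR adjusted p = 0.000799). Both serpins had values within the fold limit without replicate 1 of sh-Con (−0.52 for *SERPING1* and −0.48 for *SERPINA1*), and *SERPINA1* also without replicate 1 or 2 of sh2-*TUG1* (−0.56 and −0.55). In sh1-*TUG1* these 4 genes did not pass both limits, with log2(fold change) from −0.43 to 0.12. The classical markers *CRP*, *SAA1* and *SAA2* were not analysed here, nor were *LBP*, *C9* and *PTX3*.

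Negative acute-phase genes encode plasma proteins that decline during inflammation. Of 12 listed, 11 were tested in sh1-*TUG1*, where 1 was called higher and 1 lower, and 10 in sh2-*TUG1*, where 1 was called higher and 3 lower. Their medians on the log2 scale were 0.20 and −0.43 in these lines. *ALB*, serum albumin, rose by 0.91 ± 0.05 (SE) in sh2-*TUG1* (edgeR adjusted p = 1.51e-06) and stood at 0.45 ± 0.05 in sh1-*TUG1*. *TTR*, the thyroxine and retinol carrier transthyretin, had 4905, 4216 and 4873 counts in sh-Con, 6248, 6776 and 7149 in sh1-*TUG1*, and 2198, 2379 and 3526 in sh2-*TUG1*. Its groups did not overlap, and it fell by 0.82 ± 0.11 on the log2 scale in sh2-*TUG1* (edgeR adjusted p = 0.000363), with a value of 0.47 ± 0.06 in sh1-*TUG1* that lay within the fold limit.

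The hormone carriers also differed between lines. *SERPINA7*, thyroxine-binding globulin, rose by 1.07 ± 0.12 (SE) on the log2 scale in sh1-*TUG1* (edgeR adjusted p = 0.000293) and was at −0.15 ± 0.15 in sh2-*TUG1*. *SERPINA6*, corticosteroid-binding globulin, was at 0.33 ± 0.06 in sh1-*TUG1* and fell by 0.92 ± 0.08 in sh2-*TUG1* (edgeR adjusted p = 3.2e-05). *F12*, coagulation factor XII, fell by 0.71 ± 0.21 in sh2-*TUG1* (edgeR adjusted p = 0.023). That call was lost without replicate 1 or 3 of sh-Con or replicate 2 or 3 of sh2-*TUG1*, with values of −0.59 to −0.74 and edgeR adjusted p = 0.0515 to 0.0813. *TF*, the iron carrier transferrin, fell by 0.65 ± 0.03 in sh1-*TUG1* (edgeR adjusted p = 1.63e-06) and stood at −0.50 ± 0.04 in sh2-*TUG1*.

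**Figure D5:**
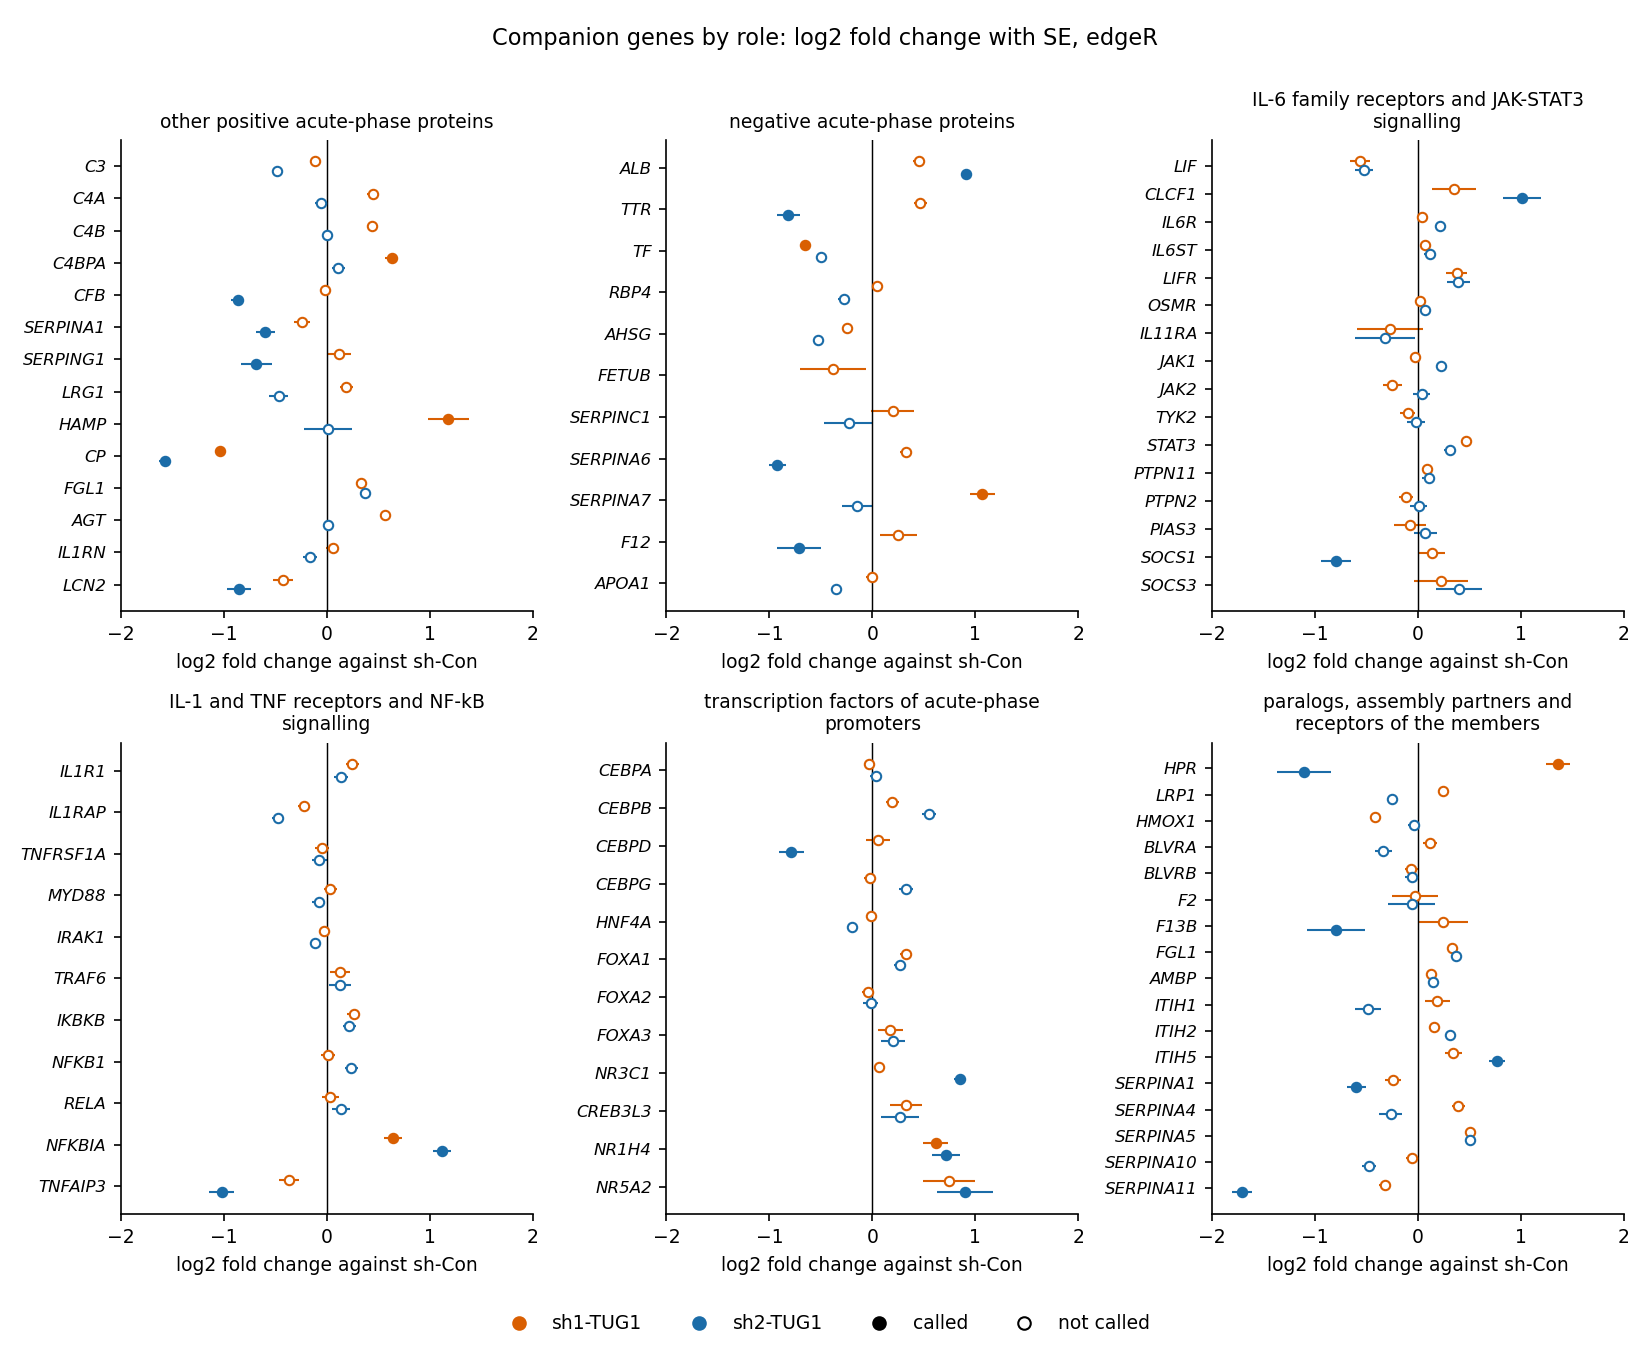
Log2 fold change against sh-Con with its SE from edgeR for the genes of the 6 lists, in sh1-*TUG1* (orange) and sh2-*TUG1* (blue), with filled points for called genes. *HPR* is called on opposite sides of 0 in the 2 lines (1.36 and −1.11), and *CP* is called lower in both (−1.04 and −1.57).

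Of the 18 genes of IL-6 family signalling, 16 were tested. In sh1-*TUG1* 0 were called by edgeR and 0 by DESeq2, with 2 higher and 1 lower by edgeR's adjusted p alone and 2 higher and 2 lower at an unadjusted p under 0.05, and in sh2-*TUG1* 1 was called higher and 1 lower. The ligands *IL6* and *OSM* were not analysed here. *IL6R*, the IL-6 receptor, had a log2(fold change) of 0.04 ± 0.05 (SE) in sh1-*TUG1* and 0.22 ± 0.05 in sh2-*TUG1*. For *IL6ST*, which encodes gp130, these values were 0.07 ± 0.06 and 0.12 ± 0.06. *STAT3* had 0.47 ± 0.04 in sh1-*TUG1* (edgeR adjusted p = 9.15e-05) and 0.31 ± 0.05 in sh2-*TUG1* (edgeR adjusted p = 0.00124), both within the fold limit. The genes called in sh2-*TUG1* were the cytokine gene *CLCF1*, which rose by 1.01 ± 0.19 (edgeR adjusted p = 0.00207), and the JAK inhibitor gene *SOCS1*, which fell by 0.79 ± 0.14 (edgeR adjusted p = 0.00182).

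Among 11 tested genes of IL-1, TNF and NF-kB signalling, 1 was called higher in sh1-*TUG1*, and 1 higher and 1 lower in sh2-*TUG1*. *NFKBIA*, which encodes the NF-kB inhibitor I-kappa-B-alpha, rose in both lines, with 1607, 1330 and 1451 counts in sh-Con, 2262, 2463 and 2435 in sh1-*TUG1*, and 3092, 3088 and 3442 in sh2-*TUG1*. Its log2(fold change) was 0.64 ± 0.08 (SE) (edgeR adjusted p = 0.000595) and 1.12 ± 0.09 (edgeR adjusted p = 1.18e-05), and the first was 0.58, within the fold limit, without replicate 3 of sh-Con. *TNFAIP3*, which encodes the NF-kB-restraining enzyme A20, fell by 1.02 ± 0.12 in sh2-*TUG1* (edgeR adjusted p = 0.000185) and was at −0.37 ± 0.10 in sh1-*TUG1*.

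The 12 listed transcription factors of acute-phase promoters were all tested, with 1 called higher in sh1-*TUG1*, and 3 higher and 1 lower in sh2-*TUG1*. *CEBPB* was at 0.19 ± 0.06 (SE) in sh1-*TUG1* and 0.55 ± 0.07 in sh2-*TUG1*, within the fold limit. Without replicate 1 of sh-Con the sh2-*TUG1* value of *CEBPB* passed that limit, at 0.63 (edgeR adjusted p = 5.92e-06). *CEBPD* fell by 0.79 ± 0.12 in sh2-*TUG1* (edgeR adjusted p = 0.000678). *NR3C1*, the glucocorticoid receptor, rose by 0.85 ± 0.05 in sh2-*TUG1* (edgeR adjusted p = 3.63e-06). *NR1H4*, the bile acid receptor, rose by 0.62 ± 0.12 in sh1-*TUG1* (edgeR adjusted p = 0.00547) and by 0.71 ± 0.14 in sh2-*TUG1* (edgeR adjusted p = 0.00274). Its values were within the fold limit in sh1-*TUG1* without replicate 1 or 2 of sh-Con or replicate 3 of sh1-*TUG1* (0.52 to 0.56), and in sh2-*TUG1* without replicate 3 of that line (0.58). *NR5A2* rose by 0.90 ± 0.27 in sh2-*TUG1* (edgeR adjusted p = 0.0222). That call was lost without replicate 2 or 3 of sh-Con or replicate 1 or 3 of sh2-*TUG1* (0.67 to 0.91, edgeR adjusted p = 0.0502 to 0.0902). In sh1-*TUG1*, *NR5A2* was at 0.75 ± 0.25 (edgeR adjusted p = 0.055). There it was called with library size alone (0.78, edgeR adjusted p = 0.0481) and without replicate 2 of sh1-*TUG1* (0.90, edgeR adjusted p = 0.049). *HNF4A* was at −0.01 ± 0.04 and −0.20 ± 0.05, in sh1-*TUG1* and sh2-*TUG1*.

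Of 22 paralogs, assembly partners and receptors of the members, 17 were tested, with 1 called higher in sh1-*TUG1* (*HPR*), and 1 higher and 4 lower in sh2-*TUG1*. *AMBP*, which encodes bikunin, the light chain joined to some of the ITIH heavy chains, was at 0.13 ± 0.04 (SE) and 0.15 ± 0.04 in the 2 lines. *ITIH2* was at 0.16 ± 0.04 and 0.31 ± 0.05, and *ITIH1*, which lies 2700 bases from *ITIH3*, at 0.19 ± 0.12 and −0.49 ± 0.13. *ITIH5* rose by 0.77 ± 0.08 in sh2-*TUG1* (edgeR adjusted p = 7.01e-05) and was at 0.35 ± 0.08 in sh1-*TUG1* (edgeR adjusted p = 0.0122), within the fold limit. *F13B*, the carrier subunit of the clot-linking factor XIII, had 17 to 61 counts per library and fell by 0.80 ± 0.28 in sh2-*TUG1* (edgeR adjusted p = 0.0438). That call was lost without any 1 of the 3 sh-Con libraries or replicate 2 or 3 of sh2-*TUG1* (−0.60 to −0.86, edgeR adjusted p = 0.0659 to 0.15), with DESeq2 (adjusted p = 0.0948) and with the replicate number as a block (edgeR adjusted p = 0.0682). *SERPINA11*, a member of the serpin family of *SERPINA3*, fell by 1.71 ± 0.09 in sh2-*TUG1* (edgeR adjusted p = 1.51e-06). In sh1-*TUG1* it was at −0.32 ± 0.06 (edgeR adjusted p = 0.00475), within the fold limit.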

How the data were processed

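RNA-seq libraries of HepG2 cells (3 each for sh-Con, sh1-*TUG1* and sh2-*TUG1*, groups and replicate numbers from the sample labels) were analysed from 2 deposited tables, each with sh-Con and 1 knockdown line. The authors deposited read counts per gene without normalization, which were used here, and FPKM values, a false discovery rate and a log2 fold change of their own comparison, which were not used. Per the submitters' processing notes, HISAT2, StringTie and GRCh38 were used. The counting tool, its use of strand and any filter on the rows are not given in the sources used here. All per-sample columns matched a sample. Rows without an Ensembl identifier (1087 and 1082) held 1.461% and 1.406% of the counts and stayed in the fits.

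The members and lists were chosen with earlier results of these data known, so members carry no test. Counts were fitted in R 4.3.3 with edgeR 4.0.16 (TMM scaling, filterByExpr, which removed 0 genes, quasi-likelihood test, Benjamini-Hochberg adjustment over all genes). Each line was fitted against sh-Con in 6 libraries, and the knockdown lines against each other in a fit of all 9. A gene was called at a fold change above 1.5 with an adjusted p below 0.05, as for the DEGs of the study. CPM were TMM-scaled, and log2 CPM used a prior count of 2. With 33054291 to 39393293 counts per library and 3 replicates, precision depended on the spread between libraries and, for genes with few counts, also on the counts. The fits were first tested on simulated data.

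Positions and transcripts came from GENCODE 29 and promoters from RefSeq. Named were all members, every listed gene called in either line against sh-Con, 9 genes fixed by name (*IL6R*, *IL6ST*, *STAT3*, *CEBPB*, *HNF4A*, *HPR*, *AMBP*, *ITIH1* and *ITIH2*), and the 5 genes nearest to *HP* and to the mean of the fibrinogen chains. Some genes set for the list of transcription factors, and a motif, are not reported here and were left out of its counts. Other genes are named only as cell type markers, as not analysed here, as overlapping or neighbouring genes, or in the closing observations. These were chosen after their values were seen. Alternatives were RLE scaling, library size alone, no filter, at least 1 CPM in 3 libraries, DESeq2 1.42.0, a joint fit of the 9 libraries, a replicate block, and leaving out each library. Replicate numbers were checked for pairing: over 12423 genes, deviations from group means of same-numbered libraries correlated at −0.29 to 0.02 in 9 pairs, with 0 over 0.1, so the numbers were not treated as pairs.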

Additional observations from a re-analysis of the deposited data

Results flagged for a closer look

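The knockdown lines differed from each other in several of these genes. All libraries of sh1-*TUG1* lay above, and all of sh2-*TUG1* below, every sh-Con library for *HP* and *FGG*. The log2(fold change) of sh2-*TUG1* against sh1-*TUG1* was −2.75 for *HP* and −0.57 for *FGG*, and for these members the difference was not tested.

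Among the companion genes the difference between the lines was tested in the fit of all 9 libraries. All 3 libraries of sh2-*TUG1* lay beyond all 3 of sh1-*TUG1* for each gene named here, which is no separate support for these calls. *HPR* was lower in sh2-*TUG1* by a log2(fold change) of −2.47 (edgeR adjusted p = 3.82e-06), with the reads it shares with *HP* not told apart. Among acute-phase genes, *CFB* was at −0.84 (6.86e-07), *SERPING1* at −0.80 (0.000666) and *HAMP* at −1.17 (0.00077), with the edgeR adjusted p in brackets. Among negative acute-phase genes, *TTR* was at −1.28 (1.94e-06), *SERPINA6* at −1.25 (4.96e-07), *SERPINA7* at −1.22 (3.48e-05) and *F12* at −0.96 (0.00168), with the edgeR adjusted p in brackets.

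Among signalling genes and transcription factors, *CLCF1* was at 0.67 (edgeR adjusted p = 0.0149), *SOCS1* at −0.93 (0.00012), *TNFAIP3* at −0.65 (0.000849), *CEBPD* at −0.84 (0.000118) and *NR3C1* at 0.78 (3.93e-07). Among paralogs and partners, *ITIH1* was at −0.68 (edgeR adjusted p = 0.00102), *F13B* at −1.04 (0.00811) and *SERPINA11* at −1.39 (4.96e-07). *CLCF1* no longer passed without replicate 1 of sh1-*TUG1* (0.53, edgeR adjusted p = 0.0577) or replicate 1 of sh2-*TUG1* (0.60, edgeR adjusted p = 0.0526). *TNFAIP3* was within the fold limit without replicate 1 of sh2-*TUG1* (−0.56), and *ITIH1* without replicate 3 of sh1-*TUG1* (−0.58). Single libraries were left out in turn, but no test for outlying libraries was made in groups of 3 libraries.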

How the results depend on the processing

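Member values were recomputed 369 times, of which 365 moved by less than 1 SD between replicates and 0 called values changed sign. With library size alone, sh2-*TUG1* against sh1-*TUG1* moved by more for *FGA* (−0.43), *FGB* (−0.26), *FGG* (−0.64) and *ITIH3* (0.07). Some member values that were not called did change sign across the settings. In sh2-*TUG1*, *HPX* ran from −0.26 to 0.13 and *FGA* from −0.045 to 0.032. In sh1-*TUG1*, *ORM1* ran from −0.27 to 0.049 and *ORM2* from −0.13 to 0.19. Among the named companion genes, 1303 of 1353 values kept their direction and side of the threshold, 29 lost and 5 gained a call, and 16 changed sign, all from values that were not called. Both totals include the setting without a filter, which repeats the main fit because the filter removed 0 genes. The limit of 1 CPM in 3 libraries also gave the same numbers of DEGs as the main fit.

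With library size alone the sign changed in sh1-*TUG1* for *HNF4A* (0.0134) and *CFB* (0.00543), in sh2-*TUG1* for *HAMP* (−0.0266), and between the knockdown lines for *IL6ST* (−0.0136) and *AMBP* (−0.0379). Leaving out each library in turn gave signs on both sides for the following genes. In sh1-*TUG1*, *CFB* ran from −0.0542 to 0.0199 (without replicate 1 of sh-Con) and *CEBPD* from −0.0323 (without replicate 2 of sh-Con) to 0.166. In sh2-*TUG1*, *HAMP* ran from −0.105 (without replicate 3 of that line) to 0.181, and *SERPINA7* from −0.303 to 0.0248 (without replicate 3 of sh-Con). Between the knockdown lines, *AMBP* ran from −0.00168 (without replicate 2 of sh2-*TUG1*) to 0.0563, and without replicate 3 of sh2-*TUG1* 2 genes were at the low end of their range, *NR1H4* (−0.0368 to 0.171) and *NR5A2* (−0.0828 to 0.35). The cause was not tested.

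Leaving out each library in turn gave 1 to 2 companion calls higher in sh2-*TUG1* against sh1-*TUG1* (1 without replicate 1 of either line). With the replicate block, DEGs numbered 305 higher and 292 lower in sh1-*TUG1* against sh-Con, in place of 318 and 328, and the *F13B* call in sh2-*TUG1* was lost (edgeR adjusted p = 0.0682). With library size alone, sh2-*TUG1* against sh1-*TUG1* had 232 DEGs higher and 1249 lower, in place of 329 and 1033. Genes with few counts, such as *HPX* and *F13B*, had wide errors, and at this depth small differences in them were not detectable.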

Other observations

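Replicate 3 stood above the other libraries of its group in further genes, as it did in *ORM2*. Of 12423 genes, 29 had replicate 3 more than 0.3 (log2 CPM) above both other libraries in every group, against 1 gene for replicate 1 and 3 for replicate 2. Of these 29, 26 had an Ensembl identifier. With any excess above 0 counted, replicate 3 had the fewest genes, at 221, against 317 for replicate 1 and 400 for replicate 2. The 29 genes were found after their values were seen, and no test was made. Among them were *F2*, prothrombin, with an excess of 0.69, 0.70 and 0.71 in sh-Con, sh1-*TUG1* and sh2-*TUG1*, *SERPINC1*, antithrombin, with 0.68, 0.58 and 0.78, and *MASP1*, a complement protease gene, with 0.56, 0.58 and 0.69. *A1BG* (0.86, 0.76 and 0.48), *SULT2A1* (0.45, 0.37 and 0.67), *TFR2* (0.45, 0.33 and 0.47) and *CFI* (0.44, 0.33 and 0.78) are others that encode plasma or liver proteins. *LGR5* (0.55, 0.48 and 0.68), *LIN28B* (0.43, 0.36 and 0.32), *ACTA1* (0.64, 0.30 and 0.42) and *KLHL9* (0.44, 0.39 and 0.63) do not encode plasma proteins. The 29 were thus not liver genes alone. Among the members, the excess of replicate 3 in sh-Con ran from −0.36 for *HP* to 0.42 for *ORM2*. What the replicate numbers share is not given in the sources used here.

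Within 100000 bases of the members, 25 other genes were tested, of which 2 were called in sh1-*TUG1*, 3 in sh2-*TUG1* and 7 between the knockdown lines. Of all tested genes, 2.44% were called higher and 2.52% lower in sh1-*TUG1*, and 4.35% and 8.97% in sh2-*TUG1*. Between the knockdown lines these shares were 2.56% and 8.04%. Besides *HPR*, the neighbours called against sh-Con were *SERPINA12* and *DHODH*. *SERPINA12* was called in both lines (log2(fold change) of −0.76 and −2.57, edgeR adjusted p = 0.022 and 9.08e-05). *DHODH*, a pyrimidine synthesis gene 26928 bases from *HP*, was called in sh2-*TUG1* (−0.83, edgeR adjusted p = 0.000316). *PLRG1*, the splicing factor gene next to *FGB*, was at −0.10 ± 0.05 (SE) in sh1-*TUG1* and −0.04 ± 0.06 in sh2-*TUG1*.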
